A study of Mus musculus with 36 samples.

Results

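Nfatc2, Cyyr1, Cxcr5, Mmp13, Xlr4b and B3galt5 are 6 genes whose transcripts were lower in Sirt7-/- pro-B cells given extra Pax5 than in the same cells with empty vector (EV). They were picked by name from the 18721 genes of the RNA-seq table of cultured wild-type (Wt) and Sirt7-/- cells, where 13651 genes, the 6 included, reached 10 normalized counts in 2 or more of the 8 libraries and were tested. That table held cultured pro-B cells of Wt mice carrying EV and of Sirt7-/- mice carrying EV, Pax5WT or Pax5K198R, a Pax5 form with arginine, which cannot be acetylated, at position K198. A second table held Pax5-/- pro-B cells with EV, Pax5WT, Pax5K198R or Pax5K198Q, in which glutamine stands in for acetylated lysine. In the third, pro-B (CD43+) and pre-B (CD43-) cells, both B220+IgM-, had been sorted from the bone marrow of 2 Wt and 2 Sirt7-/- mice. Every group had 2 libraries, 24 in all. Wt and Sirt7-/- mice were 129Sv animals aged 8 to 16 weeks, whereas Pax5-/- progenitors were C57BL/6 cells that the study's methods give as taken from fetal liver and the labels as bone marrow cells. In the Sirt7-/- mice part of the gene is deleted, so that reads from the rest of it can still be counted. The cultured cells were primary mouse pro-B cells grown on OP9 stromal feeder cells with cytokines and infected with retroviruses, so that Pax5 came from a viral promoter on top of the cells' own Pax5 in Sirt7-/- cells and in place of it in Pax5-/- cells.

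Pax5 is the transcription factor that commits lymphoid progenitors to the B lineage. It binds enhancers and promoters of B cell genes and raises their transcription, and it lowers genes of other lineages. SIRT7 is a nuclear deacetylase, and the study asked whether it acts on B cell development through the lysine K198 of Pax5. The 6 genes have unlike roles. Nfatc2 encodes a calcium-regulated transcription factor that calcineurin sends to the nucleus, Cxcr5 the chemokine receptor that draws mature B cells into follicles, and Cyyr1 a small membrane protein. Mmp13 encodes collagenase-3, an enzyme that cuts fibrillar collagen. B3galt5 adds galactose to the ends of glycan chains, and Xlr4b belongs to a family of X-linked lymphocyte-regulated genes that lie side by side on the X chromosome in closely similar copies.

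In the cultured Wt and Sirt7-/- cells, Sirt7 had 1324 and 905 normalized counts in the Wt libraries and between 325 and 407 in the 6 Sirt7-/- libraries. Pax5 had 23862 and 27134 normalized counts in Wt EV, 25995 and 37113 in Sirt7-/- EV, 43024 and 43260 with Pax5WT and 38690 and 45426 with Pax5K198R. Thus total Pax5 transcript was higher in both Pax5 arms than in either EV library, by 1.37-fold and 1.33-fold in the means, and it was as high with Pax5WT as with Pax5K198R within the spread of the libraries. The B lineage genes Cd79a and Ebf1 were at 7322 normalized counts or more in each of the 8 libraries. Libraries of this table summed to between 27814214 and 30160880 normalized counts, but the number of reads behind each value could not be recovered.

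Because the 6 genes were picked for being lower with Pax5 in Sirt7-/- cells, their levels there are described without a test. They fell into 2 sets by their level in Sirt7-/- EV. Nfatc2, Cyyr1 and Cxcr5 were higher in both Sirt7-/- EV libraries than in either Wt EV library, whereas Mmp13, Xlr4b and B3galt5 were lower in both, as were 17.4% and 17.2% of all genes. With Pax5K198R all 6 lay below both Sirt7-/- EV libraries, and with Pax5WT all but Cxcr5 did. Over all genes tested, 24.4% were lower without overlap with Pax5K198R and 19.7% with Pax5WT.

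Nfatc2 had 18.6 and 15.9 normalized counts in Wt EV, 88.9 and 54.2 in Sirt7-/- EV, 49.2 and 15.1 with Pax5WT and 15.7 and 11.6 with Pax5K198R. Its mean was 4.14-fold higher in Sirt7-/- EV than in Wt EV, and with Pax5K198R it was at 79.1% of the Wt EV mean. One of the Pax5WT libraries was thus near Wt EV and the other near Sirt7-/- EV. For Cyyr1 the values were 66.0 and 78.4 in Wt EV, 218.7 and 198.1 in Sirt7-/- EV, 160 and 55.0 with Pax5WT and 45.1 and 5.69 with Pax5K198R. Both Pax5K198R libraries lay below both Wt EV libraries, at a mean of 35.2% of Wt EV, and the Pax5 arms were the ones whose replicates were far apart. Cxcr5 had 406 and 193 normalized counts in Wt EV, 1045 and 477 in Sirt7-/- EV, 689 and 174 with Pax5WT and 333 and 107 with Pax5K198R. Replicate 1 was the higher library in each of the 4 groups, so that the Pax5WT libraries overlapped those of Sirt7-/- EV, although each was below the EV library of the same number. The log2 difference from Sirt7-/- EV with Pax5WT was -1.31 (SE 0.578) for Nfatc2, -1.14 (SE 0.842) for Cyyr1 and -1.02 (SE 0.770) for Cxcr5, and with Pax5K198R it was -2.28, -3.57 and -1.89 with the same errors.

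Mmp13 had 784 and 697 normalized counts in Wt EV and 549 and 685 in Sirt7-/- EV, but 104 and 94.7 with Pax5WT and 23.4 and 27.8 with Pax5K198R. Here the replicates were close, and the 3 Sirt7-/- groups did not overlap: the mean was 6.22-fold lower with Pax5WT and 24.1-fold lower with Pax5K198R than with EV. B3galt5 had 143 and 155 normalized counts in Wt EV and 59.0 and 90.2 in Sirt7-/- EV, and at most 0.68 in any library with Pax5WT or Pax5K198R. No ratio of means is given for B3galt5, since both Pax5 arms were under 3 counts. Xlr4b had 244 and 218 normalized counts in Wt EV, 71.3 and 93.2 in Sirt7-/- EV, 0.78 and 3.29 with Pax5WT and 37.5 and 32.3 with Pax5K198R. It was the one gene of the 6 that was lower with Pax5WT than with Pax5K198R, without overlap. On the log2 scale the difference from Sirt7-/- EV was -2.62 (SE 0.213) and -4.53 for Mmp13 with Pax5WT and Pax5K198R and -4.90 (SE 0.461) and -1.21 for Xlr4b; for genes near 0 in 1 group such values depend on the pseudocount of 1 and are no bound.

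**Figure D1:**
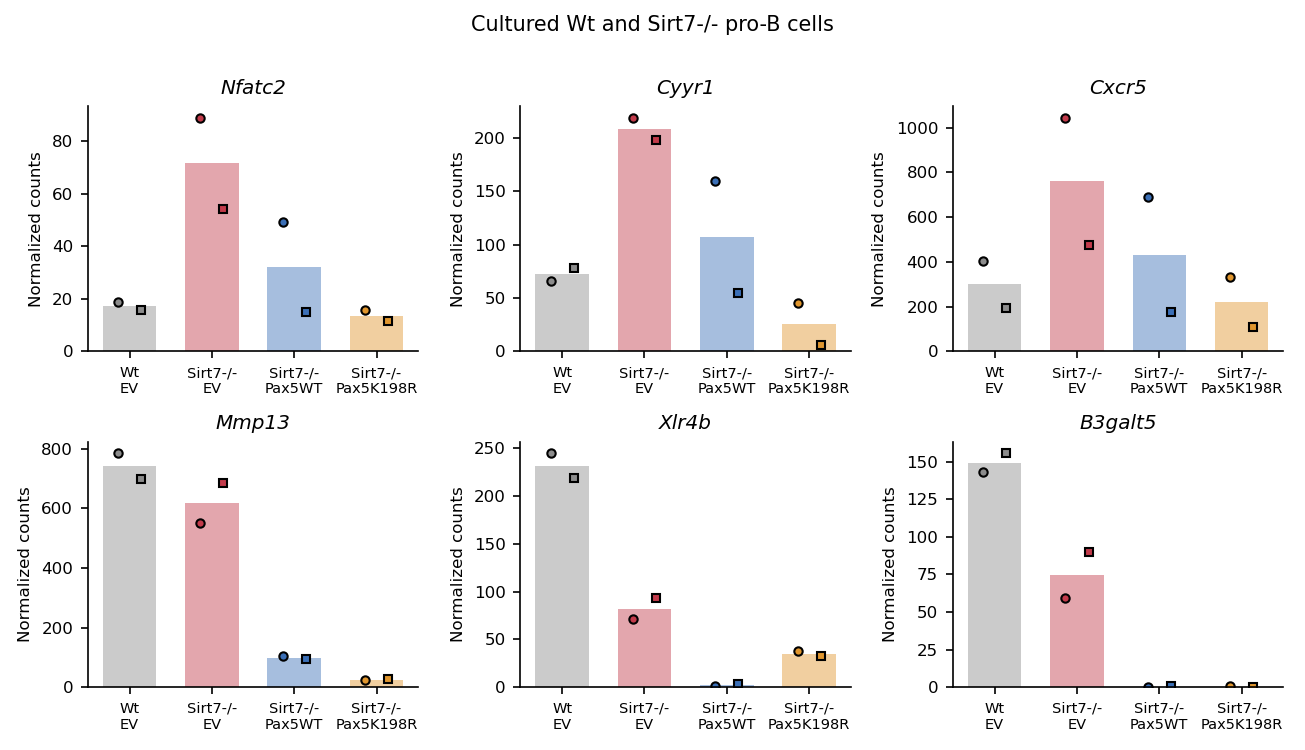
Normalized counts (y axis) of the 6 genes in the 4 groups of cultured cells (x axis). Bars are means of 2 libraries, circles replicate 1 and squares replicate 2. Nfatc2, Cyyr1 and Cxcr5 are highest in Sirt7-/- EV, Mmp13, Xlr4b and B3galt5 are highest in Wt EV, and B3galt5 is at most 0.68 in all 4 Pax5 libraries.

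The number of genes called by limma at an adjusted p under 0.05 differed between these comparisons. With Pax5WT 5 of 13651 genes (0.0366%) were called, all lower. With Pax5K198R 659 genes were called (4.83%), and 374 of them were lower (2.74%). Between Sirt7-/- EV and Wt EV 0.557% were called. With the replicate number added as a block these counts were 268, 1588 and 288. Nothing about the 6 genes is read from these counts, because the same libraries chose them.

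Over these 8 libraries the levels of Nfatc2, Cyyr1 and Cxcr5 moved together, with Pearson r between 0.816 and 0.898 on log2 values. Mmp13 and B3galt5 had r = 0.931, Xlr4b and B3galt5 r = 0.822 and Mmp13 and Xlr4b r = 0.567. For pairs with a gene from each set, r went from -0.07 (Nfatc2 with Xlr4b) to 0.659 (Cyyr1 with Mmp13). The 2 sets were thus not cleanly apart in these values. These are descriptions over 4 groups that share their libraries, not tests. Outside the 6, the genes whose pattern was most like that of Mmp13 were Rassf5 (r = 0.992), Dock8 (r = 0.991) and Hrh2 (r = 0.9896). Dock8, a guanine nucleotide exchange factor of lymphocytes, went from 2642 and 2324 normalized counts in Wt EV and 2002 and 2111 in Sirt7-/- EV to 1024 and 896 with Pax5WT and 409 and 371 with Pax5K198R. Gucy1a1 (r = 0.987), Ssc5d (r = 0.979) and Tph1 (r = 0.971) were most like B3galt5. Tph1, which encodes tryptophan hydroxylase, had 127 and 64.3 normalized counts in Wt EV and was listed at 0 in all 4 Pax5 libraries. Among the closest were Pcdhgb6 (r = 0.975) and Ap1g1 (r = 0.967) for Cxcr5, Trim13 (r = 0.982), Herc3 (r = 0.957) and Tes (r = 0.950) for Cyyr1, Trappc11 (r = 0.968), Mettl25 (r = 0.965) and Atad2b (r = 0.965) for Nfatc2, and Tsnax (r = 0.974), Tektip1 (r = 0.961) and D930048N14Rik (r = 0.957) for Xlr4b.

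Other genes of the same pathways were counted beside the 4.83% of all genes that were called with Pax5K198R. Of 27 other calcineurin-NFAT genes tested, 1 rose (Itpr3, an inositol trisphosphate receptor, log2 fold change 0.65, SE 0.106) and 1 fell (Dyrk2, a kinase, -0.41, SE 0.0855) with Pax5K198R in Sirt7-/- cells, and the median was 0.01. Of 15 other chemokine receptor and ligand genes, Ccr7, the receptor that guides lymphocytes to lymph nodes, rose (2.91, SE 0.541, adjusted p = 0.0262) and Ccrl2, a chemerin-binding receptor, fell (-1.29, SE 0.277, adjusted p = 0.0413). None of 15 other matrix metalloproteinase and inhibitor genes was called in either direction by limma (2 at an unadjusted p under 0.05, as for 18.4% of all genes), and their median was 0.48. The neighbour Mmp12, 61050 bp from Mmp13, had a log2 fold change of -0.47 (SE 0.334, adjusted p = 0.528). Of 26 other glycan elongation and capping genes, 1 rose and 3 fell, B3galnt1 counted among the 3. Fut4 (-1.76, SE 0.189, adjusted p = 0.0051) fell, and St3gal5, which makes the ganglioside GM3, rose (1.49, SE 0.299, adjusted p = 0.0326). B3galnt1 had 18.5 and 16.3 normalized counts with EV and 0.98 and 1.92 with Pax5K198R. No p is given for it, since it passed the filter only through groups where it was high. All these p-values are from limma with Benjamini-Hochberg adjustment over all genes, whose median change was 0.01. With Pax5WT none of the genes of these lists was called by limma without the replicate block. At an unadjusted p under 0.05 it was 2 NFAT, 4 chemokine, 3 metalloproteinase and 4 glycan genes, beside 9.91% of all genes. No count of these lists with the block is given, and over all genes the block gave 268 calls in place of 5.

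Other copies of the Xlr family were at low level in the cultured cells and 3 passed the filter. Xlr3a had 36.8 and 44.3 normalized counts in Wt EV, 0 and 0.88 in Sirt7-/- EV, 0 and 0 with Pax5WT and 20.3 and 18.1 with Pax5K198R. Its Pax5K198R libraries thus lay above both Sirt7-/- EV libraries, whereas those of Xlr4b lay below them. No p is given for Xlr3a, which passed the filter only through the groups where it was high. Xlr4c had 24.6 and 23, 10.3 and 2.18, 0 and 1.97, and 2.08 and 4.67 normalized counts in the 4 groups in the same order. Xlr4b, Xlr4a and Xlr4c are near-identical, and reads that fit several copies may have been shared out between them, so that values of a single copy are uncertain.

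Cxcr5 is also a marker of mature B cells, and several other markers of that kind rose where it was low. Of 10 tested, 5 rose and 1 fell with Pax5K198R in Sirt7-/- cells, and the median change of the list was 2.87 on the log2 scale; H2-Aa, H2-Ab1 and Cd74, which encode class II antigen presentation proteins, rose by 4.30, 3.43 and 3.18. The summed level of 11 such markers, Cxcr5 among them and Ighd the most abundant, was 2151 and 2471 normalized counts in Wt EV, 6142 and 8963 in Sirt7-/- EV, 12320 and 25230 with Pax5WT and 23720 and 57940 with Pax5K198R. The sum was thus higher where Cxcr5 was higher, from Wt EV to Sirt7-/- EV, and higher again where Cxcr5 was lower. Of 19 genes listed as repressed by Pax5, 0 rose and 4 fell, among them Prdm1 (-2.79, SE 0.492), Il2ra (-2.61, SE 0.436) and Tcf7 (-2.09, SE 0.437). Of 21 listed as activated by Pax5, 2 rose and 1 fell (limma). The median changes of the repressed and activated lists were -0.01 and -0.06. Prdm1 was at 3.26 and 1.71 normalized counts with Pax5K198R, below the filter. The summed level of 16 T cell markers was 6829 and 4440 normalized counts in Wt EV, 5216 and 2804 in Sirt7-/- EV, 2594 and 1360 with Pax5WT and 1729 and 1391 with Pax5K198R, and its most abundant gene was Lat. From Sirt7-/- EV to both Pax5 arms that sum was lower, as the 6 genes were, and its part in the result was not tested. In bulk samples, fewer cells of a type and less RNA per cell cannot be told apart.

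Markers of stroma, which could come from the feeder cells, were most abundant in replicate 2 of both Pax5 arms. Their summed level over 31 genes was 17880 and 14180 normalized counts in Wt EV, 12750 and 18970 in Sirt7-/- EV, 21080 and 48000 with Pax5WT and 16400 and 36480 with Pax5K198R, with Fn1 the most abundant and none at 0. By the study's methods, the vectors carried hCD4 or GFP as a marker, and infected pro-B cells were selected in a sort for hCD4. The study also describes Sirt7-/- pro-B cells given Pax5 together with GFP. Which marker was used for the cells of these libraries is not stated there. Stromal cells can also make Mmp13, and the part of these cells in its level was not tested. The male gene Ddx3y was at 36.8 normalized counts or less in these 8 libraries and at 3918 or more in the Pax5-/- libraries, and the part of sex in the levels of the X-linked Xlr4b was not tested.

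In Pax5-/- cells, into which Pax5 had been returned, the 6 genes were measured independently of the rule, with different results for different genes. Pax5 had a mean of 2152 normalized counts with EV, 6305 with Pax5WT, 8941 with Pax5K198Q and 18886 with Pax5K198R, so that reads of Pax5 were also counted in the Pax5-/- cells with EV. Unlike in Sirt7-/- cells, the 3 forms differed in level, and Pax5 itself was higher with Pax5K198R than with Pax5WT (log2 fold change 1.57, SE 0.118, limma adjusted p = 0.0029); level and mutation cannot be told apart in comparisons of these forms. Cyyr1 was listed at 0 in all 8 libraries and Xlr4b had at most 4.3, so that 4 of the 6 genes passed the filter.

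Mmp13 had 23.4 and 30.0 normalized counts with EV, 314 and 338 with Pax5WT, 481 and 435 with Pax5K198Q and 254 and 119 with Pax5K198R. Each library with Pax5 was thus above both EV libraries, the opposite of the order in Sirt7-/- cells. The log2 fold change from EV was 3.57 (SE 0.341, limma adjusted p = 0.0019) with Pax5WT, 4.06 (adjusted p = 0.0020) with Pax5K198Q and 2.67 (adjusted p = 0.0032) with Pax5K198R. The difference between Pax5K198R and Pax5WT did not pass (-0.90, SE 0.341, adjusted p = 0.305), and the 2 Pax5K198R libraries were far apart: it was called without Pax5K198R replicate 1 (-1.44, adjusted p = 0.0261) and was -0.36 without replicate 2. Stroma markers summed to 5856 and 8479 normalized counts with EV, 6469 and 14590 with Pax5WT, 6786 and 10840 with Pax5K198Q and 12940 and 14800 with Pax5K198R. Much of the sum with Pax5K198R was a single gene, Col5a2, the most abundant of the list. Col5a2 had 458.8 and 452.1 normalized counts with EV, 1057 and 928.5 with Pax5WT and 7463 and 7260 with Pax5K198R. The part of stroma markers in the rise of Mmp13 was not tested. Of the 13345 genes tested, 3.25%, 0.922% and 9.92% were called with Pax5WT, Pax5K198Q and Pax5K198R, and 2.25%, 0.869% and 3.87% were called higher.

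Cxcr5 had 1458 and 1628 normalized counts with EV, 1207 and 1098 with Pax5WT, 952 and 1063 with Pax5K198Q and 567 and 406 with Pax5K198R. The order of its means was EV, Pax5WT, Pax5K198Q, Pax5K198R from high to low. Both Pax5WT libraries were below both EV libraries, as for 21.3% of all genes. The log2 fold change of Pax5K198R was -1.68 from EV (SE 0.170, adjusted p = 0.0013) and -1.26 from Pax5WT (SE 0.170, adjusted p = 0.0124). The differences of Pax5WT (-0.42, adjusted p = 0.311) and Pax5K198Q (-0.61, adjusted p = 0.283) from EV did not pass, and Pax5K198Q against Pax5WT was -0.19 (SE 0.170, adjusted p = 1), in a comparison that called 0.0225% of genes and none of the 6 (1 of the 4 tested at an unadjusted p under 0.05, as for 3.46% of all genes). Genes called lower with Pax5K198R were 6.05% of those tested against EV and 2.10% against Pax5WT, where 2.87% were called in either direction. Of 13 T cell markers 7 were called lower with Pax5K198R than with EV, of 7 NK cell markers 3, and of 7 myeloid markers 3, with 1 higher. Summed NK cell markers were 2975 and 2650 normalized counts with EV and 971.7 and 610.5 with Pax5K198R. T cell markers summed to 7346 and 8298 with EV and 4851 and 4964 with Pax5K198R. Their part in the fall of Cxcr5 was not tested.

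B3galt5 was abundant in Pax5-/- cells, with 1175 and 1037 normalized counts with EV, 1845 and 1818 with Pax5WT, 1637 and 1185 with Pax5K198Q and 1012 and 870 with Pax5K198R. Pax5WT libraries were above both EV libraries, as for 21.3% of genes, and those of Pax5K198R below both, as for 23.2%. Against EV neither Pax5WT (0.73, SE 0.166, adjusted p = 0.0638) nor Pax5K198R (-0.23, adjusted p = 0.481) passed the threshold, whereas Pax5K198R was lower than Pax5WT by a called margin (-0.96, SE 0.166, adjusted p = 0.0263). With the replicate number as a block in limma the rise with Pax5WT was called (adjusted p = 0.00566), as were 10.1% of all genes. With either Pax5WT library left out, neither B3galt5 nor Cxcr5 was called between Pax5K198R and Pax5WT. Nfatc2 had 120 and 90.0 normalized counts with EV, 54.8 and 48.6 with Pax5WT, 45.8 and 70.1 with Pax5K198Q and 94.6 and 72.8 with Pax5K198R. It was lower than EV without overlap with Pax5WT (-0.998, SE 0.315, adjusted p = 0.170) and with Pax5K198Q (-0.87, adjusted p = 0.490), as were 21.3% and 18.1% of genes, but no difference of Nfatc2 passed the threshold.

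**Figure D2:**
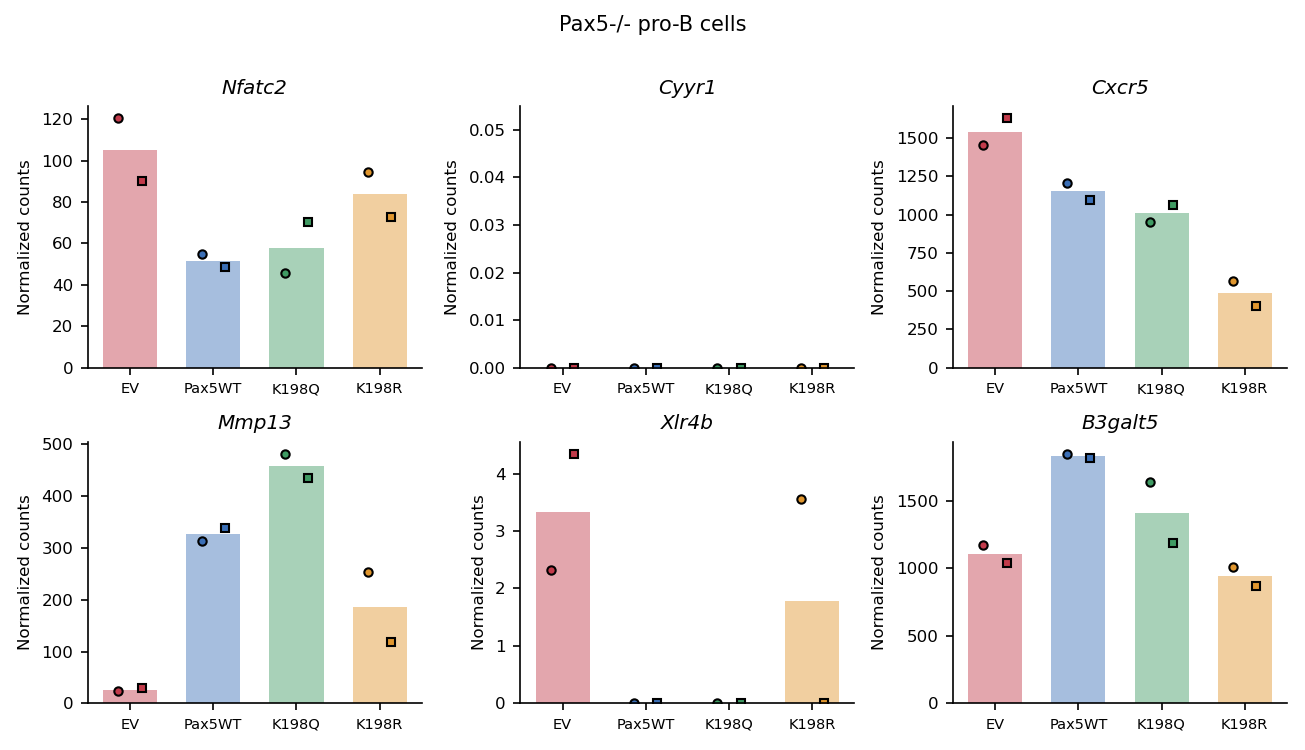
Normalized counts (y axis) of the 6 genes in Pax5-/- cells by vector (x axis). Bars are means of 2 libraries, circles replicate 1 and squares replicate 2. Mmp13 is above EV with every Pax5 form, Cxcr5 is lowest with Pax5K198R, and Cyyr1 is listed at 0 throughout.

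Set side by side, Mmp13 was 12.2-fold higher with Pax5WT than with EV in Pax5-/- cells and 6.22-fold lower in Sirt7-/- cells, and B3galt5 was 1.66-fold higher in Pax5-/- cells and at most 0.68 normalized counts in Sirt7-/- cells. Cxcr5 and Nfatc2 had lower means with Pax5WT and Pax5K198R than with EV in both kinds of cell. The levels with EV differed as well, with Mmp13 at 26.7 normalized counts in Pax5-/- EV and 617 in Sirt7-/- EV and B3galt5 at 1106 and 74.6. The tables were normalized separately, the cells differ in strain, in the level of Ddx3y, in their Pax5 and Sirt7 alleles and, by the methods though not by the labels, in tissue of origin and age, which cannot be told apart, and the difference between them was not tested.

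**Figure D3:**
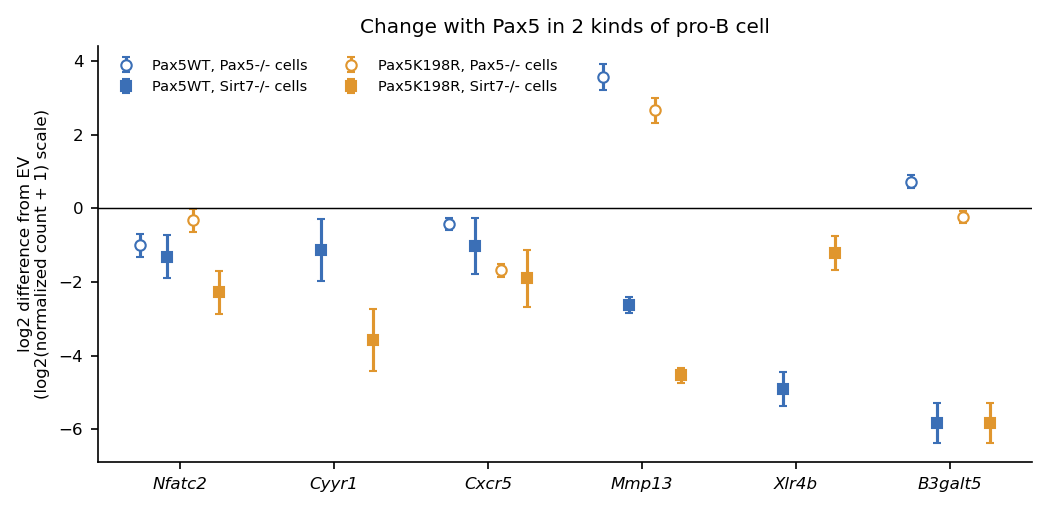
Log2 difference from EV (y axis, scale of log2(normalized count + 1)) for each gene (x axis) with Pax5WT (blue) and Pax5K198R (orange) in Pax5-/- cells (open circles) and Sirt7-/- cells (filled squares). Bars are 1 SE from limma with 2 libraries per group; Cyyr1 and Xlr4b were not tested in Pax5-/- cells. Mmp13 lies at 3.57 and 2.67 in Pax5-/- cells and at -2.62 and -4.53 in Sirt7-/- cells.

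The lists gave further context in Pax5-/- cells. Over all genes tested, 3.87% were called higher and 6.05% lower with Pax5K198R. With Pax5WT 2.25% were called higher and 3.25% in either direction. With Pax5K198R, 17 of 21 tested genes activated by Pax5 rose and 0 fell, and with Pax5WT 16 rose. These counts include Blnk and Cd55, which passed the filter only through groups where they were high. Blnk, the adaptor of B cell receptor signalling, had 2.56 and 4.90 normalized counts with EV. It had 915 and 954 with Pax5WT and 3586 and 3133 with Pax5K198R. Cd55 was at 0 in both EV libraries. Of 23 genes listed as repressed by Pax5, 15 fell and 1 rose with Pax5K198R and 6 fell and 2 rose with Pax5WT. Tcf7 was among those that rose with Pax5WT (2.35, SE 0.312). Il2ra had 5980 and 5550 normalized counts with EV and 10150 and 10180 with Pax5WT. In Sirt7-/- cells Tcf7 and Il2ra fell with Pax5K198R. Gata3, 1 of the 15, was at 5.02 and 1.22 normalized counts with Pax5K198R, below the filter. Of 21 other chemokine receptors and ligands, 5 fell with Pax5K198R and 1 rose, and Cx3cr1 (-1.79, SE 0.242, limma adjusted p = 0.0041) was among those that fell as Cxcr5 did. Of 13 other matrix metalloproteinases and inhibitors, 0 rose with any form in limma (at an unadjusted p under 0.05, in either direction, 4 differed with Pax5WT, 1 with Pax5K198Q and 3 with Pax5K198R, beside 14.4%, 7.86% and 22.9% of all genes), and with Pax5K198R Timp3 (-1.33, SE 0.257) and Mmp14 (-0.71, SE 0.143) fell. Their median with Pax5WT was 0.63 on the log2 scale, with 5 higher and 2 lower without overlap, beside a median of 0.0046 over all genes and 21.3% of them either way. Of 28 other NFAT pathway genes, Rcan2, an inhibitor of calcineurin, went from 0 in both EV libraries to 24.2 and 48.2 normalized counts with Pax5WT, and Ppp3ca, a catalytic subunit of calcineurin, rose with Pax5K198R (0.52, SE 0.101, adjusted p = 0.0169). Both EV libraries were also at 0 for B3galnt1 among 24 glycan genes, and those with Pax5WT had 13.9 and 20.9 normalized counts. No p is given for Rcan2 and B3galnt1, which passed the filter only through groups where they were high. Fut4 (3.44, SE 0.370) and B3gnt5 (0.95, SE 0.124) rose with Pax5WT, whereas Fut4 fell with Pax5K198R (-1.64), to 5.02 and 4.15 normalized counts. No p is given for that fall, since those libraries were below the filter.

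In sorted cells, pre-B cells were compared with pro-B cells of the same Wt mice, and 40.2% of the 17649 genes tested were called. The stage of each library was taken from its title, which the cell type field contradicts for 4 of the 8 samples; Sirt7 had 2692 and 2533 normalized counts in Wt pro-B, 5613 and 5219 in Wt pre-B, 363 and 366 in Sirt7-/- pro-B and 1066 and 821 in Sirt7-/- pre-B cells. Both libraries of 1 Sirt7-/- mouse, replicate 2, stood apart, with 19330 and 22300 normalized counts of the haemoglobin gene Hba-a1 against 2365 to 5263 in the other 6 libraries, and with summed NK cell markers of 2830 in pro-B and 2008 in pre-B cells against at most 1263. Cxcr5 had 438 and 501 normalized counts in Wt pro-B and 2320 and 1855 in Wt pre-B cells, a rise of 2.14 (SE 0.254, limma adjusted p = 0.00093). Xlr4b had 280 and 233 in pro-B and 529 and 434 in pre-B cells (0.91, SE 0.183, adjusted p = 0.0079), a call that was lost without Wt pro-B replicate 2 (0.78, adjusted p = 0.0518). Both rose, as 18.1% of all genes did, and 22.0% fell. All 11 other markers of mature B cells rose too, and the summed level with Cxcr5 was 69320 and 76880 normalized counts in Wt pro-B and 365900 and 233800 in Wt pre-B cells; its part in the rise of Cxcr5 was not tested. B3galt5 was low, with 11.2 and 19.6 normalized counts in Wt pro-B and 0 in both pre-B libraries, which is at least 4.80-fold lower when 3 reads per library are put in place of 0. It passed the filter only through Wt pro-B cells, where it was high, so that no p is given. Nfatc2 (0.70, SE 0.359, adjusted p = 0.164) and Mmp13 (0.22, SE 0.288, adjusted p = 0.587) did not pass the threshold. Cyyr1 had between 1 and 8 reads in each Wt library and was not tested. Of 24 other chemokine receptor and ligand genes 8 rose and 6 fell between these stages, of 27 NFAT pathway genes 5 rose and 4 fell, and of 25 glycan genes 8 rose and 8 fell. Xlr4c rose with Xlr4b (0.76, SE 0.208, adjusted p = 0.0250).

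Between Sirt7-/- and Wt mice limma called none of Nfatc2, Cxcr5, Mmp13 and Xlr4b in sorted cells, where 0.0623% of genes were called in pro-B and 0.0850% in pre-B cells. B3galt5 is left out, since it passed the filter only through Wt pro-B cells. At an unadjusted p under 0.05 it was 0 of the 4 in pro-B cells, as for 5.94% of all genes, and 2, Nfatc2 and Cxcr5, in pre-B cells, as for 13.6%. Nfatc2 had 254 and 204 normalized counts in Wt pre-B and 578 and 513 in those of Sirt7-/- mice (log2 fold change 1.25, SE 0.359, limma adjusted p = 0.220), and the libraries did not overlap. Cxcr5 had 2320 and 1855 in Wt pre-B and 5237 and 3075 in Sirt7-/- pre-B cells (0.95, SE 0.254, adjusted p = 0.201). Both were higher in each Sirt7-/- library than in either Wt library, which holds for 22.1% of all genes. In pro-B cells the log2 differences were -0.27 (SE 0.359) for Nfatc2 and 0.00 (SE 0.254) for Cxcr5. The change of the Sirt7 effect from pro-B to pre-B cells was 1.52 (SE 0.507, adjusted p = 0.848) for Nfatc2 and 0.95 (SE 0.360, adjusted p = 0.886) for Cxcr5, and neither passed, in a test that called 0.00567% of genes. The summed mature B markers, with Cd74 the most abundant, moved with Cxcr5: they were 365900 and 233800 normalized counts in Wt pre-B and 549800 and 367000 in Sirt7-/- pre-B cells. The sort took IgM- cells, and the part of these markers in the result was not tested.

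With DESeq2 on the recovered reads both Nfatc2 (adjusted p = 0.0376) and Cxcr5 (adjusted p = 0.0098) were called in pre-B cells, where it called 4.08% of all genes. With edgeR neither was called, and 0.0283% of all genes were. In pro-B cells DESeq2 called 123 genes by genotype where limma called 11. With only the 2 groups compared in the fit, limma called 0 genes by genotype at either stage. Without Sirt7-/- pre-B replicate 2, the library rich in Hba-a1, the limma log2 difference was 1.34 for Nfatc2 (adjusted p = 0.400) and 1.33 for Cxcr5 (adjusted p = 0.124), and without replicate 1 it was 1.17 (adjusted p = 0.290) and 0.57 (adjusted p = 0.227). Mmp13 had 204 and 156 in Wt pre-B and 133 and 123 in Sirt7-/- pre-B cells (-0.48, SE 0.288, adjusted p = 0.519). Xlr4b in Sirt7-/- cells was 317 and 320 in pro-B and 487 and 428 in pre-B cells, within 0.32 (SE 0.183) and -0.07 (SE 0.183) of Wt on the log2 scale. The fall of Xlr4b seen between Wt EV and Sirt7-/- EV in culture, 231 to 82.2 in the means, stands beside 256 and 319 in sorted pro-B cells. The male gene Ddx3y was at 1579 normalized counts or more in every sorted library and at 36.8 or less in the cultured ones. The part of sex in this difference of the X-linked Xlr4b was not tested.

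**Figure D4:**
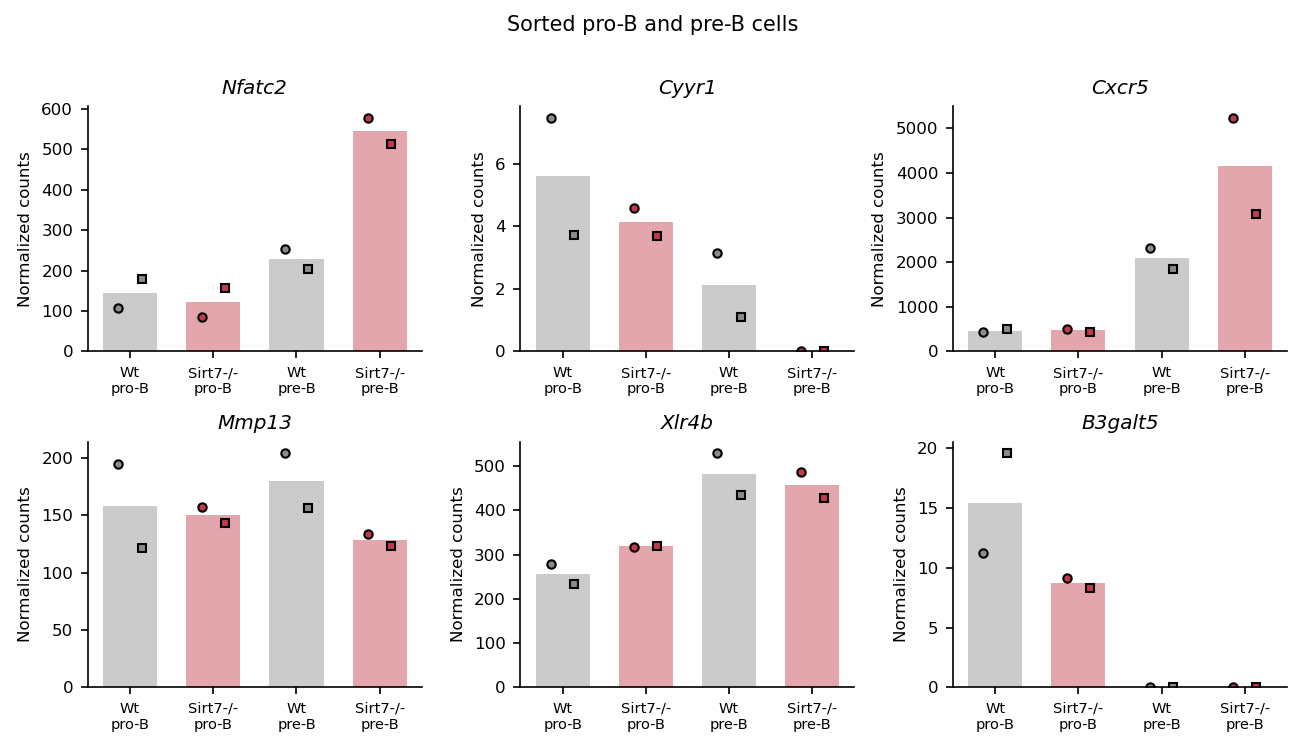
Normalized counts (y axis) of the 6 genes in sorted pro-B and pre-B cells of Wt (grey) and Sirt7-/- (red) mice (x axis). Bars are means of 2 libraries, circles replicate 1 and squares replicate 2. Cxcr5 and Xlr4b are higher in pre-B cells, B3galt5 has 0 reads in all 4 pre-B libraries, and Nfatc2 and Cxcr5 are highest in Sirt7-/- pre-B cells.

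Binding of Pax5 near the 6 genes was read from ChIP-seq peak lists of Pax5-/- cells with each form, with 10646 and 11830 peaks for Pax5WT, 3750 and 3957 for Pax5K198Q and 12158 and 13997 for Pax5K198R. No peak list was at hand for Sirt7-/- cells. A region was taken as bound when both replicates had an overlapping peak. Within 100 kb of the gene, 4 of the 6 genes (Nfatc2, Cxcr5, Mmp13 and B3galt5) had a region bound by Pax5WT, the same 4 had one bound by Pax5K198R, and B3galt5 alone had one bound by Pax5K198Q. Cyyr1 and Xlr4b had no peak in any list. Of the genes tested in Pax5-/- cells, which include those 4 and not Cyyr1 and Xlr4b, 75.9%, 78.8% and 43.0% had a bound region of Pax5WT, Pax5K198R and Pax5K198Q in such a window.

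Nfatc2 (chromosome 2, 168476410 to 168601657, minus strand, in GRCm38) had 3 bound regions, all between 113.1 and 122.6 kb past the nearest annotated start and beyond the 3′ end of the gene. Around Cxcr5 (chromosome 9, 44511787 to 44561877, minus strand), which overlaps Bcl9l, 4 regions were bound by Pax5WT. The strongest, at -42.7 kb from the start, had a fold enrichment over input of 6.40 and 7.48 with Pax5WT and 12.5 and 14.2 with Pax5K198R, and was found in 1 of 2 Pax5K198Q lists at 4.86. Another, in the annotated untranslated part of the last exon of Cxcr5, had 5.34 and 6.12 with Pax5WT and 6.90 and 7.20 with Pax5K198R. Mmp13 (chromosome 9, 7272514 to 7283331, plus strand) had 3 regions bound by Pax5WT, at -87.6, -54.8 and -12.6 kb from its start. The nearest had 7.42 and 7.16 with Pax5WT, 6.07 in 1 of 2 Pax5K198R lists and no peak with Pax5K198Q. At B3galt5 (chromosome 16, 96235801 to 96319859, plus strand) the region at -90.4 kb from the start was in all 6 lists, at 5.79 and 8.52 with Pax5WT, 5.62 and 6.65 with Pax5K198Q and 8.20 and 9.63 with Pax5K198R. Cyyr1 lies at chromosome 16, 85421533 to 85553397, and Xlr4b at chromosome X, 73214333 to 73222453.

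**Figure D5:**
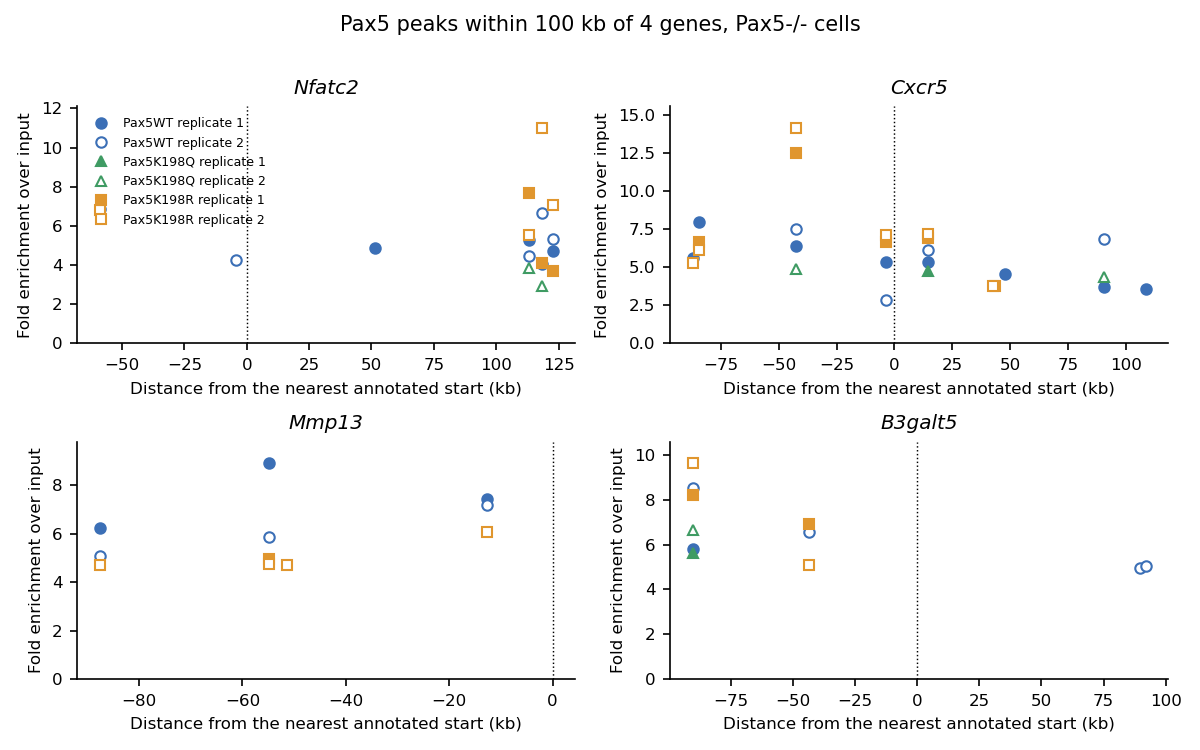
Fold enrichment over input at the peak summit (y axis) against the distance of the summit from the nearest annotated start of the gene (x axis, kb, negative before the start) for every peak within 100 kb of 4 genes in Pax5-/- cells. Blue circles are Pax5WT, green triangles Pax5K198Q and orange squares Pax5K198R, filled for replicate 1 and open for replicate 2. The tallest points at Cxcr5 are the Pax5K198R peaks at -42.7 kb, and no peak lies within 1 kb of a start.

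To show what Pax5 was found on, the 200 bases around the summit of the region bound by Pax5WT nearest to a start of each gene are given from the plus strand of GRCm38, with the 20 bases at the summit in capitals. The window of B3galt5, at -90.4 kb, is not printed because it reaches into the untranslated start of another gene, Wrb, although its summit lies between genes.
Nfatc2, chr2:168439093-168439292: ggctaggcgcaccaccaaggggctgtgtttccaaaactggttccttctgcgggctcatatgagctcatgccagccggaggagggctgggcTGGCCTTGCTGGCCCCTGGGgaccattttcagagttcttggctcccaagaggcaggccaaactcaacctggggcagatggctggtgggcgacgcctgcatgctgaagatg
Cxcr5, chr9:44565464-44565663: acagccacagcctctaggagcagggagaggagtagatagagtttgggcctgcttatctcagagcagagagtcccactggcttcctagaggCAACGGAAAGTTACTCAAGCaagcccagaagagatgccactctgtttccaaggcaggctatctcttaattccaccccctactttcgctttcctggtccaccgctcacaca
Mmp13, chr9:7259806-7260005: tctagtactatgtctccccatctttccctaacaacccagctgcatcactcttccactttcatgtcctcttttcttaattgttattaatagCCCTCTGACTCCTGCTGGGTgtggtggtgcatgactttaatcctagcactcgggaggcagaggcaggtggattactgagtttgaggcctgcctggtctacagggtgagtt
The Mmp13 window holds 1 match to GCNTGAC, letters from the core of the Pax5 consensus, read on both strands, and the others hold none. Between 14.5% and 18.4% of the windows around all summits of a list and 10.7% of 32851 RefSeq promoters of 300 bases hold it. Of 8 promoters of 5 of the genes (Cxcr5 is not in the table), 1, of B3galt5, holds it, and none has a peak within 1 kb. A match is no proof of a site, and its absence says only that these letters are not in the window.

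Of 46 annotated genes within 100 kb of the 6, 11 were tested in the cultured cells. Igsf5, which encodes a junctional adhesion protein and lies 41809 bp from B3galt5, was the 1 called by limma, and fell with Pax5K198R (log2 fold change -3.65, SE 0.589). Its mean was 78.0 normalized counts in Sirt7-/- EV, 19.6 with Pax5WT (-1.82, limma adjusted p = 0.355) and 5.10 with Pax5K198R. No p is given for the fall with Pax5K198R, since that mean was below the filter. The others, Gm6278 near Cyyr1, Ccdc84, Bcl9l and Ddx6 near Cxcr5, Dync2h1, Dcun1d5 and Mmp12 near Mmp13, F8a and Xlr4c near Xlr4b and Wrb near B3galt5, had log2 fold changes between -0.52 and 0.43 with Pax5K198R. Bcl9l, which overlaps Cxcr5 in the annotation, was at 0.43 (SE 0.153, adjusted p = 0.175), and reads from the overlap may have been counted for either gene. No tested gene was within 100 kb of Nfatc2.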

How the data were processed

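RNA-seq had been made from 24 libraries in 3 tables and Pax5 ChIP-seq from Pax5-/- cells in 6 peak lists. The authors ran Salmon on mm10 transcripts, and the values deposited are gene counts that DESeq2 scaled by its median of ratios, a signal comparable within each table. Peaks were called by the authors with Bowtie2 and MACS2 over input at q = 0.05 after duplicate removal and a mapping quality minimum of 37, and the deposited lists give the ratio (fold enrichment) and −log10 q. One Pax5K198R list carries the number of another replicate in its peak names. Input libraries were not used here.

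Groups came from sample titles. Genes that reached 10 normalized counts in 2 or more of 8 libraries were tested on log2(value + 1) with limma (version 3.58.1, R 4.3.3), the 4 groups of a table in 1 fit, with Benjamini-Hochberg adjustment and a call at 0.05. Fold changes are on that scale, which understates changes of low genes. With 2 replicates per group, an exact two-sided permutation test cannot go below p = 0.33, and cultured replicates had been made on different days, so that p-values measure the spread between these samples. Cultured libraries of the same number deviated together (r from 0.264 to 0.383 in Pax5-/- cells and from 0.156 to 0.428 in the others); whether a number marks a shared day is not given in the sources used here, and values with the number as a block are given where they change a call. Whole reads were recovered for the sorted table (100% of values above 0 within 0.01 of a whole number; 50004827 to 55536608 reads per library) and tested with edgeR 4.0.16 and DESeq2 1.42.0 as alternatives. Depth is unknown for the others, whose normalized counts summed to 28865461 to 30520853 (Pax5-/- cells) and 27814214 to 30160880. Pro-B and pre-B libraries of a number came from the same mouse; their deviations correlated at r = 0.0798 in Wt and 0.156 in Sirt7-/- mice. The methods were tested on simulated data.

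The 6 genes and the gene lists were chosen with earlier results of these data known. Genes named besides the 6 are up to 3 called genes per list and comparison with the largest change, tested neighbours within 100 kb, the 3 genes with the highest correlation with each of the 6, and markers used as checks. Some genes and markers are not reported here.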

Additional observations from a re-analysis of the deposited data

Results flagged for a closer look

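Libraries lay on opposite sides of EV in Pax5-/- and Sirt7-/- cells for Mmp13 with both Pax5 forms and for B3galt5 with Pax5WT. With Pax5WT the log2 difference of Mmp13 was 3.57 in Pax5-/- cells and -2.62 in Sirt7-/- cells, and with Pax5K198R it was 2.67 and -4.53. For B3galt5 with Pax5WT it was 0.73 in Pax5-/- cells, which did not pass the threshold, and -5.83 in Sirt7-/- cells, where both Pax5WT libraries were under 1 normalized count and the value depends on the pseudocount. With Pax5K198R, B3galt5 was lower than EV without overlap in both kinds of cell, at -0.23 and -5.84, the latter again dependent on the pseudocount. In the 3 cases of opposite sides every library of one kind of cell moved one way and every library of the other kind the other way. The difference between the 2 kinds of cell was not tested, since the tables were normalized separately and the genes were picked for their fall in one of them.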

How the results depend on the processing

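Of 368 alternative values for the 6 genes in tested comparisons, 344 kept their direction and their side of the threshold, 9 lost it, 5 gained it and 10 changed sign, and of 162 in cultured Wt and Sirt7-/- cells 147 moved by less than the spread and 15 by more. The 10 leave out 1 library each, from 6 results of which no alternative passed the threshold: in Sirt7-/- against Wt pro-B cells Cxcr5 ranged from -0.091 to 0.10, Mmp13 from -0.37 to 0.30 and Nfatc2 from -0.69 to 0.16, in pre-B cells Xlr4b from -0.21 to 0.073, between Wt pre-B and pro-B cells Mmp13 from -0.12 to 0.55, and between Pax5K198Q and Pax5WT Nfatc2 from -0.17 to 0.43. The rises of Mmp13 with the 3 forms and the fall of Cxcr5 with Pax5K198R against EV in Pax5-/- cells were called in each of their 10 alternatives. Between Pax5K198R and Pax5WT the 2 called genes became 1 with no filter, 0 with only the 2 groups in the fit, 0 with a log2 change of at least 1.5 added, and 0 to 3 with 1 library left out (0 without Pax5WT replicate 1 or 2, 3 with Mmp13 added without Pax5K198R replicate 1, 1 without Pax5K198R replicate 2). Cxcr5 was called there in 7 of 10 and B3galt5 in 5 of 10. With Pax5WT against EV the count went from 1 to 2 with only the 2 groups in the fit and to 2 with the replicate block, which added B3galt5; the block changed the call of no other of the 6 genes. In Sirt7-/- against Wt pre-B cells DESeq2 called 2 where limma called 0. Genes with a bound region within 20 kb were 2 for Pax5WT, 0 for Pax5K198Q and 1 for Pax5K198R (51.5%, 21.6% and 57.4% of all genes), and within 100 kb a single list gave 2 to 3 for Pax5K198Q in place of 1. Over all genes, leaving out 1 library gave 89 to 166 calls in place of 434 with Pax5WT and 561 to 1484 in place of 1324 with Pax5K198R in Pax5-/- cells, and 63 to 228 in place of 659 with Pax5K198R in Sirt7-/- cells. In Sirt7-/- cells with Pax5WT it gave 1 to 5 in place of 5. In sorted cells it gave 0 to 15 in place of 11 by genotype in pro-B cells (0 without replicate 1 of either genotype), 14 to 177 in place of 15 in pre-B cells (177 without Sirt7-/- replicate 1) and 4698 to 5244 in place of 7090 by stage. With the replicate block the first 4 counts were 1343, 2834, 1588 and 268, and 363, 29, 1004, 288 and 7 in place of 123 (Pax5K198Q against EV), 3 and 383 (Pax5K198Q and Pax5K198R against Pax5WT), 76 (Sirt7-/- against Wt EV) and 15 (pre-B cells by genotype). The causes were not tested.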
